A study of Bos taurus with 18 samples.

Results

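Single-nucleotide polymorphism (SNP) sites that create or remove a stop codon, remove a start codon or fall at a splice site were described in the pituitary and hypothalamus of Angus cows. They were the rows of the deposited SNP table annotated as stop gained, stop lost, start lost or any splice site effect, and they numbered 2169 of 992284 sites. Splice region sites, near an intron boundary but outside its outermost bases, made up 1803 of them. The other 366 sites comprised 118 stop gained, 103 splice donor, 70 splice acceptor, 38 stop lost and 37 start lost sites.

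Ribosomes stop at a TAG, TGA or TAA codon. A stop codon that arises inside the reading frame shortens the protein, and transcripts that carry it can be degraded by nonsense-mediated decay, which lowers the share of that allele among the messenger RNA reads of a heterozygous animal. Loss of a stop codon lets translation run into the downstream sequence, and loss of the start codon moves or abolishes initiation. Nearly all introns begin with GT (the donor) and end with AG (the acceptor), so a change of these bases can cause an exon to be skipped or an intron to be kept.

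Polyadenylated RNA was sequenced from both tissues of 9 healthy Angus cows, with 3 cows each at 6 months (newly weaned), 18 months (sexually mature) and 30 months (after a calving). None was in heat at slaughter, and no treatment or genetic change distinguished the groups. Genotypes were called from the RNA reads of each library, so a site could be called only where such reads covered it, and a heterozygous call needed reads of both alleles. A difference in DNA and a difference present in RNA alone therefore cannot be told apart.

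The 18 libraries held 28724861 to 38036840 reads counted in gene models. The labels do not say which pituitary and hypothalamus came from the same cow. At sites with at least 20 reads in both libraries, each library shared 99.3 to 99.7% of its genotypes with exactly 1 library of the other tissue, and at most 66.7% with any other, and these pairs were taken as the 9 animals. An animal whose libraries were called differently counted as heterozygous. The third 18-month pituitary library stood apart, with calls at 166142 SNP sites and 540 of the 2169 sites, against 304211 to 500761 and 955 to 1367 in the others. Gene models carry no symbols in these files, so sites are named by gene model and position. Tissue markers were not examined for the same reason.

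The 366 stop, start, donor and acceptor sites lay in 350 gene models, of which 15 held more than 1 such site. Coordinates are given as in the table, whose chromosome names are those of the UMD assembly of the cattle genome and whose headers name no build. Stop gained sites had a median of 62 reads over all libraries, start lost sites 75, donor sites 40, acceptor sites 38.5 and splice region sites 32. Stop lost sites were deeper, with a median of 219.5 reads, and synonymous sites, which change a codon but not its amino acid, had 326. Calls in all 9 animals were obtained at 46.6% of stop gained, 73.7% of stop lost, 43.2% of start lost, 37.9% of donor, 40% of acceptor and 37.6% of splice region sites, against 80.0% of synonymous sites.

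The codon changes are shown because they state which sense codons were lost to a stop and which stops were lost. Among the 118 stop gained sites, CAG-to-TAG was the most frequent change with 25 sites, followed by CGA-to-TGA with 19 and GAG-to-TAG with 12. The new stop was TAG at 59 sites, TGA at 37 and TAA at 22. Of the 38 stop lost sites, 21 had the reference stop TGA, 11 TAG and 6 TAA, and the most frequent changes were TGA-to-TGG, which writes a tryptophan codon, with 9 sites and TGA-to-CGA, which writes an arginine codon, with 6. The start codon ATG became ACG at 14 of 37 start lost sites and GTG at 7. Transitions (changes between A and G or between C and T) made up 54.2% of stop gained sites, 57.9% of stop lost and 67.6% of start lost sites, against 84.3% of synonymous sites.

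The strand of the gene model could be read from its coding sites for 83 of 103 donor and 61 of 70 acceptor sites. On that strand, the donor changes were most often G-to-A with 23 sites, T-to-C with 16 and T-to-A with 12. The acceptor changes were most often G-to-A with 22 and A-to-G with 15. The reference base was neither G nor T at 14 of the 83 donor sites, and neither A nor G at 4 of the 61 acceptor sites. At 13 of those 14 donor sites the alternative base was G or T. Which base of the donor a site occupies was not determined, so whether the alternative allele completes a GT is not known.

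Among sites called in all 9 animals, stop gained alleles were mostly rare and stop lost alleles common. At the 55 stop gained sites so called, the alternative allele occurred on 1 of 18 chromosomes at 28 sites (50.9%), against 23.8% of the 25152 synonymous sites called as fully. The median frequency at these sites was 5.56% for stop gained and 22.2% for synonymous sites. At the 28 stop lost sites called in all animals the median was 75%, and 13 (46.4%) were homozygous for the alternative allele in every animal, against 4.29% of synonymous sites. A site of the latter kind separates all 9 cows from the reference sequence and does not vary among them. Start lost and acceptor sites called in all animals had a median frequency of 11.1%, donor sites 27.8% and splice region sites 22.2%.

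**Figure D1:**
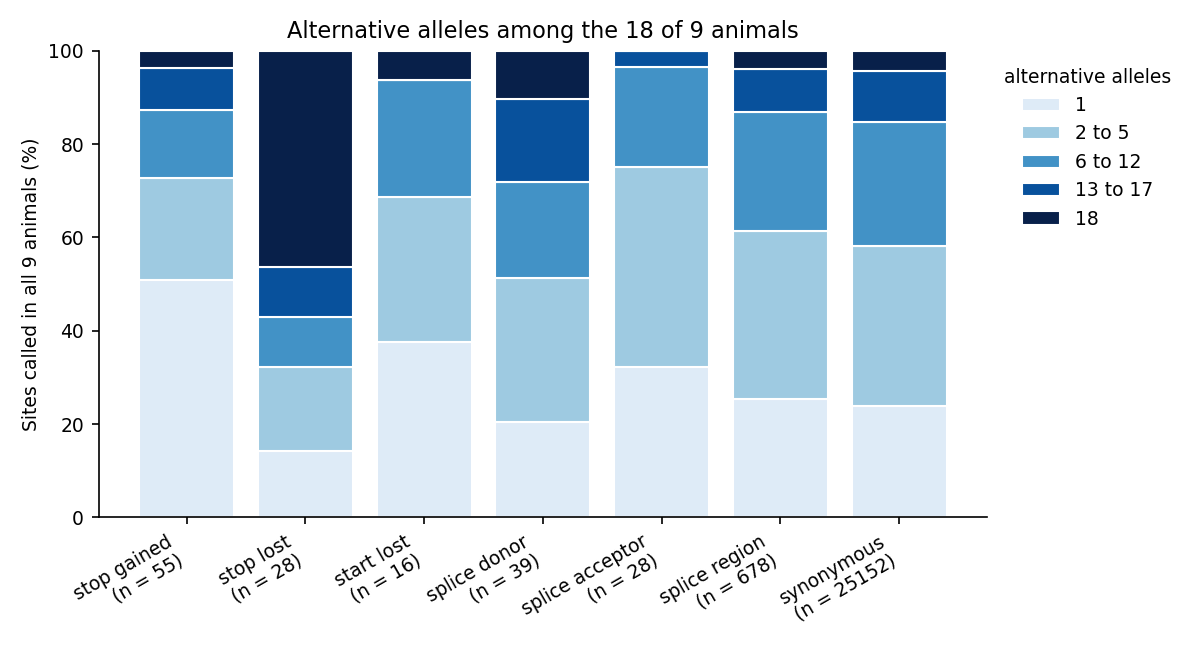
Stacked bars give the percentage of sites called in all 9 animals (vertical axis) by how many of the 18 alleles were the alternative one, for each class of site with its number of sites below. Sites with 1 alternative allele fill 50.9% of the stop gained bar, and sites with 18 fill 46.4% of the stop lost bar.

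When every called site was counted, whatever the number of animals, the median frequency was 25% for stop gained, 75% for stop lost, 40% for start lost, 44.4% for donor, 35.7% for acceptor, 38.9% for splice region and 27.8% for synonymous sites. These medians depended on the calls kept. At calls of depth 10 or more they were 33.3% for stop gained, 75% for donor and 30% for synonymous sites. With only animals whose libraries were called alike, the stop gained median was 33.3% and the synonymous median 27.8%. Under both of these settings the stop gained median was the higher, whereas it was the lower with every call kept and among sites called in all 9 animals. An alternative allele carried by 1 animal was seen at 52.5% of all stop gained and 27.5% of synonymous sites, at 48% and 28.7% with calls of depth 10 or more, and at 47.4% and 28.3% with libraries called alike. A homozygous alternative animal was seen at 54 of the 118 stop gained sites (45.8%) and at 48.7% of synonymous sites.

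Each animal carried a number of these alleles at calls of depth 10 or more. An animal was heterozygous at 4 to 15 stop gained sites (median 13) and homozygous for the new stop at 3 to 6 (median 4). For stop lost sites these numbers were 2 to 6 and 13 to 16, for start lost 1 to 7 and 1 to 4, for donor 5 to 8 and 7 to 12, and for acceptor 4 to 11 and 0 to 3. The ages overlapped in their heterozygous stop gained sites, with 8.33 ± 4.51 in the 6-month animals, 12.3 ± 3.79 in the 18-month and 12.3 ± 2.08 in the 30-month animals (SD, n = 3 each). Homozygous stop gained sites numbered 5.33 ± 0.577, 4.33 ± 0.577 and 3.33 ± 0.577 per animal at those ages. The share of alternative alleles among called stop gained sites ranged from 22.6 to 32.1% over the animals.

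Sites homozygous for the alternative allele in all 9 animals comprised 27 splice region, 13 stop lost, 4 donor, 2 stop gained and 1 start lost site. The deepest stop gained site was in gene934 (chromosome 1, position 127257294), a CAG-to-TAG change with 651 reads, all 18 libraries carrying only the new stop. The gene model averaged 8.19 ± 1.79 FPKM (fragments scaled by the length of the gene model and the mapped fragments of the library; SD, n = 9). The other lay in gene18100 (chromosome 15, position 52416798), a GAG-to-TAG change with 156 reads in a gene model at 0.697 ± 0.260 FPKM (SD, n = 9). Both premature stops were thus present in transcripts that were detected in every animal.

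The deepest stop lost sites of this kind were both TAG-to-CAG. That of gene1392 (chromosome 2, position 15673842) had 4903 reads in a gene model at 20 ± 3.08 FPKM, and that of gene23038 (chromosome 19, position 37141406) had 4741 reads at 99.0 ± 18.3 FPKM (SD, n = 9 each). The start lost site of gene30699 (chromosome 29, position 46205158), ATG-to-GTG, had 653 reads. In gene8887 on chromosome 7, the adjacent donor positions 19194210 and 19194211 were both A-to-C in all animals, with 526 reads each. These adjacent positions share their reads and are not independent.

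The alternative share of reads was then taken at heterozygous calls of depth 10 or more, summing the libraries of an animal and then the animals. A value near 50% means that both alleles were read equally. Such a value was obtained at 46 stop gained, 12 stop lost, 18 start lost, 22 donor, 18 acceptor and 522 splice region sites. The median share was 47.9% for stop gained, 49.4% for stop lost, 48.4% for start lost, 53.5% for donor and 48.7% for splice region sites, and 38.3% for acceptor sites. Synonymous sites had 48.2% and intron sites 47.2%. At the 7 donor sites heterozygous in at least 3 animals the median was 34.5%, on the other side of 50%. The medians of the stop and start classes lay within 2 percentage points of the synonymous median, and the acceptor median lay below it. Without the third 18-month pituitary library the medians were 48.4% for stop gained, 55.3% for donor and 40% for acceptor sites, and 49.4, 48.4 and 48.7% for stop lost, start lost and splice region sites.

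Medians of single animals, which rest on few sites, spread widely. They ran from 41.4 to 62.2% for stop gained, 44.1 to 68.3% for stop lost, 25.8 to 64.3% for start lost and 25 to 87.1% for donor sites. The median over stop gained sites was below the synonymous median in 3 of 9 animals, with a mean over animals of 51.1 ± 6.33% (SD, n = 9). Stop lost and start lost medians were below it in 4 of 9 animals each, donor medians in 3 of 9 and splice region medians in 5 of 9. Acceptor medians were below it in 8 of 9 animals, with a mean of 33.7 ± 11.1% against 48.2 ± 0.125% for synonymous sites (SD, n = 9). Acceptor medians were 49.8, 43.9 and 45.7% in the 6-month animals, 30.2, 36.4 and 23.6% in the 18-month animals, and 19.8, 33.2 and 20.7% in the 30-month animals. The 6-month values lay above all others, but each animal contributed only 4 to 11 acceptor sites. Those of gene5798, gene5400 and gene18233 entered in all 9 animals, so the medians of the animals rest in part on the same few sites. That of gene19580 entered in 7 animals, with 6-month animals 1 and 3 left out, and the remaining sites differed between animals.

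**Figure D2:**
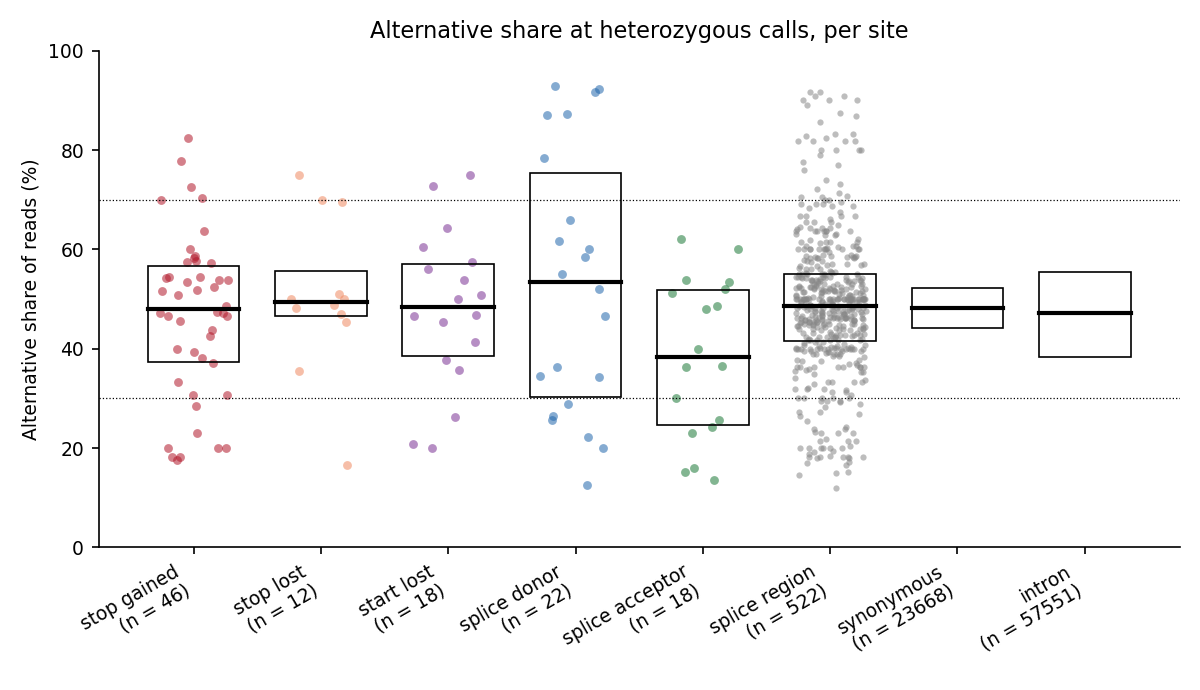
The alternative share of reads (percent, vertical axis) is drawn for each site of the 6 classes as a point, with a thick line at the median and a box from the lower to the upper quartile, and as median and box alone for synonymous and intron sites. Dotted lines mark 30 and 70%. Donor and acceptor boxes reach further from 50% than the stop, start and synonymous boxes.

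Classes differed more in their tails than in their medians. Of all SNP sites with such calls, 8.83% had an alternative share under 30% and 4.03% a share over 70%. Shares under 30% were seen at 8 of 46 stop gained sites (17.4%), 1 of 12 stop lost, 3 of 18 start lost, 6 of 22 donor (27.3%), 6 of 18 acceptor (33.3%) and 47 of 522 splice region sites (9.0%), against 3.08% of synonymous and 12.2% of intron sites. Shares over 70% were seen at 4 stop gained, 1 stop lost, 2 start lost, 6 donor, 0 acceptor and 34 splice region sites, and at 1.63% of synonymous sites. Next to the limits lay the donor site of gene23724 with 28.9% and an acceptor site of gene31017 with 30.0% of 10 reads, and a stop lost site of gene14951 with 69.6% of 23 reads and a stop gained site of gene26396 with 70% of 20 reads.

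For stop gained sites the low shares came with low depth. The 8 sites under 30% had 10 to 44 reads (median 13.5), 7 of them were heterozygous in 1 animal, and the exact (Clopper-Pearson) 95% interval of the share, which covers counting error only, lay wholly below 50% at 3. By depth, 6 of 18 stop gained sites with 10 to 29 reads were under 30% (33.3%), 2 of 13 with 30 to 99 reads (15.4%), and 0 of 15 with 100 reads or more. Synonymous sites also had fewer low shares at greater depth, with 11.9, 3.00 and 0.962% under 30%. Below 100 reads, low shares were thus more frequent at stop gained than at synonymous sites of like depth, on few stop gained sites. At acceptor sites the low shares were found at depth too, with 3 of 10 sites of 100 reads or more under 30%. Of the 8 donor sites of that depth, 1 was under 30% and 2 were over 70%. In the deepest class of reads, the stop gained median was 50.8% and the synonymous median 48.3%.

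**Figure D3:**
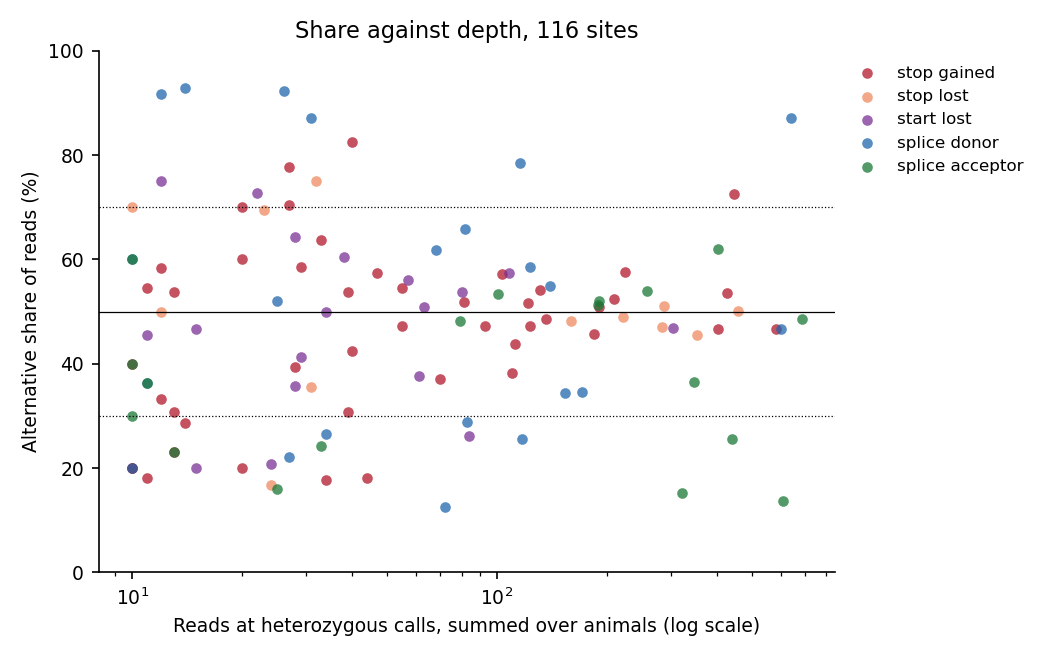
Each of 116 stop, start, donor and acceptor sites is a point, placed by its reads at heterozygous calls summed over animals (horizontal log axis) and its alternative share (percent, vertical axis), with lines at 30, 50 and 70%. Above 100 reads the stop and start sites stay near 50% apart from 1 stop gained site at 72.5%, whereas donor and acceptor sites appear on both outer sides or below.

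Whether a share differed from equal reading in replicate animals was tested with limma on log2((alternative reads + 0.5)/(reference reads + 0.5)), over every SNP site heterozygous at depth in at least 3 animals, with Benjamini-Hochberg adjustment over all of them. The test called 4414 of 69155 sites (6.38%) at adjusted p under 0.05. Of the 221 sites of interest that could be tested, 29 were called (13.1%), 19 with a low and 10 with a high alternative share, where 5.31% and 1.08% of all sites were called low and high. By class the calls were 2 of 13 stop gained, 1 of 5 stop lost, 0 of 1 start lost, 4 of 7 donor, 3 of 7 acceptor and 19 of 188 splice region sites. Of synonymous sites 2.35% were called, and of intron sites 9.49%. Without the third 18-month pituitary library the same 29 sites were called. Data of the same depths were simulated with 68955 of 69155 sites left at equal reading. There the test recovered 63 of 100 sites with a true share of 15% and 12 of 100 with a share of 30%. With so few changed sites the adjustment was stricter than in the real data, so these rates may not hold for the real sites.

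The stop gained site with the lowest share lay in gene29550 (chromosome 28, position 8235111), a TGG-to-TAG change that turns a tryptophan codon into a stop. The 3 heterozygous animals at depth read the new stop in 15.4% of 13 reads and 20% of 10 reads (18-month animals 1 and 3) and in 18.2% of 11 reads (30-month animal 3). All lay far below 50%, on 34 reads in all, of which 6 were alternative. The log2 ratio was -1.96 ± 0.20 (SE, limma adjusted p = 0.00849). Other heterozygous sites of this gene model in the same animals had a median minor share (the share of the allele with fewer reads) that averaged 45.9%. The gene model itself averaged 29.7 ± 5.23 FPKM in the 3 carriers and 18.1 ± 6.32 in the 6 other animals (SD), and the exact permutation p of the difference was 0.0952 (adjusted p = 0.815).

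The called stop gained site with a high share lay in gene26599 (chromosome 23, position 30123089), a CAG-to-TAG change. The new stop took 70.3% of reads in 6-month animal 3, 74.1 and 67.5% in 18-month animals 2 and 3, and 76.6, 70.2 and 77.3% in the 30-month animals. All 6 heterozygous animals lay above 65%, with 325 alternative reads of 448 (log2 ratio 1.40 ± 0.14, SE, limma adjusted p = 0.000888). The rest of the gene model was as unequal, since other sites in the same animals had a mean minor share of 25.6% and this site 27.3%. Its level was 3.84 and 5.04 FPKM in the 2 animals without the stop, 7.74 ± 0.802 (SD, n = 6, range 6.58 to 8.90) in heterozygotes and 12.6 in the homozygote. How often levels differ this much between genotypes at other sites was not counted. With 2 animals in the reference group, this site was outside the carrier test.

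The other named stop gained sites were not called. In gene8837 (chromosome 7, position 17898420, TGC-to-TGA) the shares were 56.5% in 6-month animal 2, 39.5 and 40% in 18-month animals 1 and 3 and 42.9% in 30-month animal 1 (limma adjusted p = 0.511). In gene26451 (chromosome 23, position 28355360, CAG-to-TAG) 5 animals ranged from 43.6 to 74.2% (limma adjusted p = 0.369). In gene15903 (chromosome 13, position 54142489, GAG-to-TAG) the shares were 53.4% in 6-month animal 3, 26.8 and 51.1% in 18-month animals 2 and 3, and 48.1 and 47.5% in 30-month animals 1 and 2. Apart from the animal at 26.8%, both alleles of gene15903 were read about equally, over 581 reads (limma adjusted p = 0.593). Its level was 14.4 ± 4.27 FPKM in the 5 heterozygotes and 13.1 ± 2.30 in the 4 animals homozygous for the stop (SD).

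Stop lost sites were read evenly at depth. In gene7158 (chromosome 5, position 117240472, TAA-to-CAA) 5 animals ranged from 44.6 to 54.4% over 457 reads, with a limma log2 ratio of 0.04 ± 0.14 (SE, adjusted p = 0.907). In gene27679 (chromosome 25, position 2007163, TGA-to-TGG) they ranged from 41.5 to 50% over 354 reads (limma adjusted p = 0.320), and in gene9740 (chromosome 7, position 67289819, TGA-to-TTA) 3 animals ranged from 43.8 to 50.4% over 283 reads (limma adjusted p = 0.651). The site of gene8163 (chromosome 6, position 115674880, TGA-to-CGA) gave 51.2 to 56.2% in 4 animals and 21.6% in 6-month animal 2 (limma adjusted p = 0.828).

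The called stop lost site, in gene15252 (chromosome 12, position 80607456, TGA-to-TCA), had 80.0% of 10 reads in 6-month animal 2 and 66.7% of 12 and 80.0% of 10 reads in 30-month animals 2 and 3. At this depth the shares were all high, but on 32 reads (log2 ratio 1.48 ± 0.26, SE, limma adjusted p = 0.0419), and the adjusted p reached 0.120 under other settings. Heterozygous animals were mixed in their libraries of lower depth. The pituitary had 25% of 8 reads in 6-month animal 2 and 0% of 4 in 30-month animal 2. The hypothalamus of 30-month animal 3 had 85.7% of 7 reads. In 18-month animal 3 the pituitary had 50% of 4 reads and the hypothalamus 0% of 6. The 1 start lost site that could be tested, in gene5280 (chromosome 4, position 107598137, ATG-to-ATC), ranged from 50 to 71.4% in 6 animals on 108 reads (limma adjusted p = 0.210).

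Called donor sites lay in both directions. In gene7455 (chromosome 6, position 25621228, A-to-G on the strand of the gene) the alternative allele had 11.5 and 13.3% of reads in 18-month animals 1 and 2 and 12.5% in 30-month animal 3 (log2 ratio -2.61 ± 0.19, SE, limma adjusted p = 0.00289). In gene17238 (chromosome 14, position 83573470, G-to-T) the shares were 24.0% in 6-month animal 1, 31.6 and 33.3% in 18-month animals 2 and 3, and 15.8, 23.5 and 28% in the 30-month animals (limma adjusted p = 0.00343). In gene23724 (chromosome 19, position 57263572, C-to-G) they were 33.3% in 6-month animal 1, 23.1 and 25% in 18-month animals 1 and 2 and 30.0% in 30-month animal 2 (limma adjusted p = 0.0117). In these 3 sites every animal heterozygous at depth 10 or more was under 35%, while other sites of the same gene models had mean minor shares of 29.9% for gene7455, 45.4% for gene17238 and 32% for gene23724. At lower depth gene7455 went the other way. There 4 animals were called homozygous alternative, on 2 to 6 reads per library, and 18-month animal 3 had 66.7% of 6 reads. Over all reads of its carriers the alternative share of gene7455 was 26.2%. That share was 18.4% for gene17238 and 20.3% for gene23724. At each of these 2 sites 4 libraries of carriers were called homozygous reference, with 0 alternative of 46 reads for gene17238 and 0 of 37 for gene23724.

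In gene19244 (chromosome 16, position 51629104, A-to-G on the strand of the gene) the alternative allele had most of the reads. Its share was 86.6, 80.8 and 92.0% in the 6-month animals and 90.2, 88.3 and 86.6% in the 30-month animals, 558 of 640 reads in all (log2 ratio 2.77 ± 0.17, SE, limma adjusted p = 8.23e-05). The other sites of the gene model were near equality, with a mean minor share of 45.6% against 12.6% at the donor. In gene15344 (chromosome 12, position 90556700, T-to-C as the table writes it) 6-month animal 1 and 30-month animal 1 had 81.2 and 87.7%, but 6-month animal 3 had 18.2% of 11 reads, and the site was not called (limma adjusted p = 0.645).

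The 3 called acceptor sites all had low shares. In gene5798 (chromosome 5, position 30985696, A-to-G on the strand of the gene) the alternative share was 12, 10.2 and 24.2% in the 6-month animals, 14, 12.8 and 8.89% in the 18-month animals and 19.8, 13.6 and 12.5% in the 30-month animals. All 9 animals were under 25%, with 83 alternative reads of 608 (log2 ratio -2.58 ± 0.16, SE, limma adjusted p = 8.8e-06). In gene5400 (chromosome 4, position 114454832, A-to-G on the strand of the gene) the shares were 14.5, 19.4 and 28.3%, then 27.1, 29.5 and 24.1%, then 28.9, 30.5 and 28.8% in the same order of animals (limma adjusted p = 0.000122). In gene19580 (chromosome 16, position 75540188, T-to-C as the table writes it) 7 animals ranged from 9.38 to 21.9% (limma adjusted p = 5.5e-05).

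The other acceptor sites were closer to equal. In gene18233 (chromosome 15, position 63011453, G-to-T) all 9 animals were heterozygous, with 53.1, 71.7 and 78.3% at 6 months, 77.0, 58.1 and 46.2% at 18 months and 17.2, 64.9 and 59.4% at 30 months, a spread too wide for a call (limma adjusted p = 0.472). In gene15775 (chromosome 13, position 45475867, G-to-A) 4 animals ranged from 43.9 to 57.6% (limma adjusted p = 0.760).

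**Figure D4:**
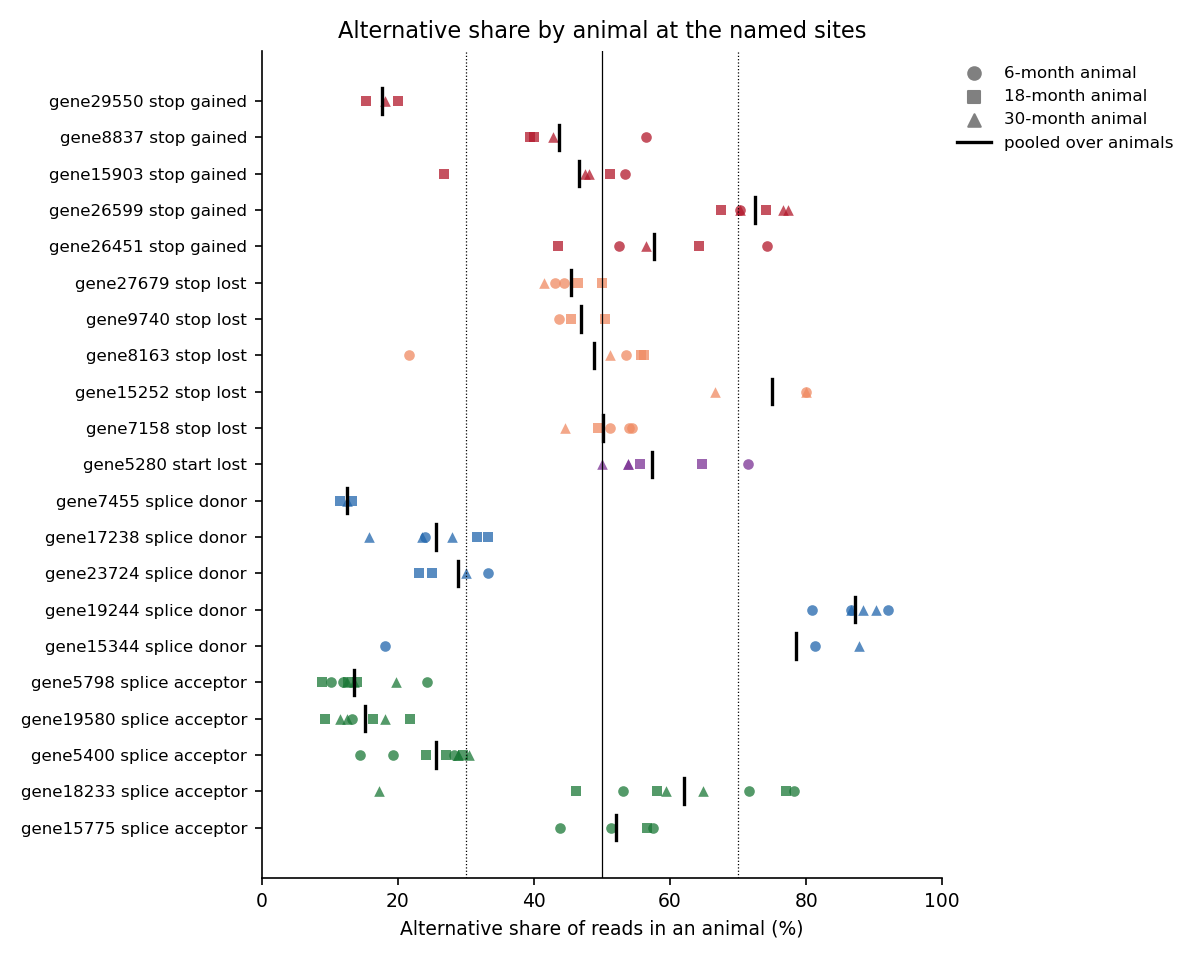
Each point is the alternative share of reads (percent, horizontal axis) in 1 heterozygous animal, with circles, squares and triangles for 6-, 18- and 30-month animals and a black bar for the share pooled over animals. Rows are the named sites, with lines at 30, 50 and 70%. The points of gene5798 and gene19580 all lie under 25% and those of gene19244 over 80%, whereas the stop lost rows apart from gene15252 centre near 50%.

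The libraries of an animal were often called differently at some donor and acceptor sites. Among pairs of libraries with depth 10 or more and at least 1 heterozygous call, the calls of an animal differed at 33.3% of donor pairs (9 of 27) and 32.6% of acceptor pairs (15 of 46). They differed at 4.76% of stop gained, 5.67% of splice region, 1.47% of synonymous and 6.03% of intron pairs, and at 0 of 20 stop lost and 0 of 15 start lost pairs. Several pairs can come from 1 site, so these rates do not count independent sites. At the acceptor of gene5798, 1 library was called heterozygous and the other homozygous reference in all 8 animals with both calls. These 8 pairs are among the 15 acceptor pairs above. The 8 reference libraries of gene5798 held 7 alternative reads of 342, and over all reads of the 9 animals the share was 9.47%. The heterozygous state of this site in 9 of 9 animals therefore rests on 1 library each.

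At the donor of gene19244, 6 of 8 animals were called differently in their libraries, and 18-month animal 1 was homozygous alternative in the pituitary (91 of 97 reads) and homozygous reference in the hypothalamus (10 of 10 reads). The 12 libraries with the alternative allele had a median of 73 reads at this position and the 5 reference libraries 10. The donor of gene15344 was alike, with 11 to 57 reads in the 3 libraries with the alternative allele and 2 to 7 reads in the 13 reference libraries. Calls also differed at the donors of gene17238 (4 of 8 animals), gene23724 (4 of 9) and gene7455 (3 of 6). The deposited calls thus gave some animals more than 1 genotype at a site, and what gave rise to this was not tested.

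Over all donor sites with at least 3 heterozygous and 3 reference libraries, heterozygous libraries had more than 2 times the reads of reference libraries at 7 of 19 sites (36.8%). The same held for 4 of 12 acceptor sites (33.3%), 2 of 19 stop gained sites (10.5%), 14.8% of synonymous and 22% of intron sites. A library with few reads can miss an allele, which applies to every class.

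The unequal shares at splice sites were largely not shared by the rest of their gene models. In heterozygous animals with another heterozygous site in the gene model, the median minor share was 26.9% at donor sites and 42.9% at the other sites, and 30.3 against 43.9% for acceptor sites. At stop gained sites it was 40 against 41.4%, at splice region sites 42.1 against 44.5% and at synonymous sites 44.5 against 44.2%. Of 22 donor calls with a minor share under 30%, 5 had the rest of the gene model under 30% too, and 1 of 19 acceptor calls did. For stop gained calls this was 9 of 24. A site counts here once per animal, with 38 calls at 19 donor, 40 at 14 acceptor and 87 at 40 stop gained sites. The acceptor of gene5400 alone entered with 8 animals, so these values lean on the few sites heterozygous in many animals.

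**Figure D5:**
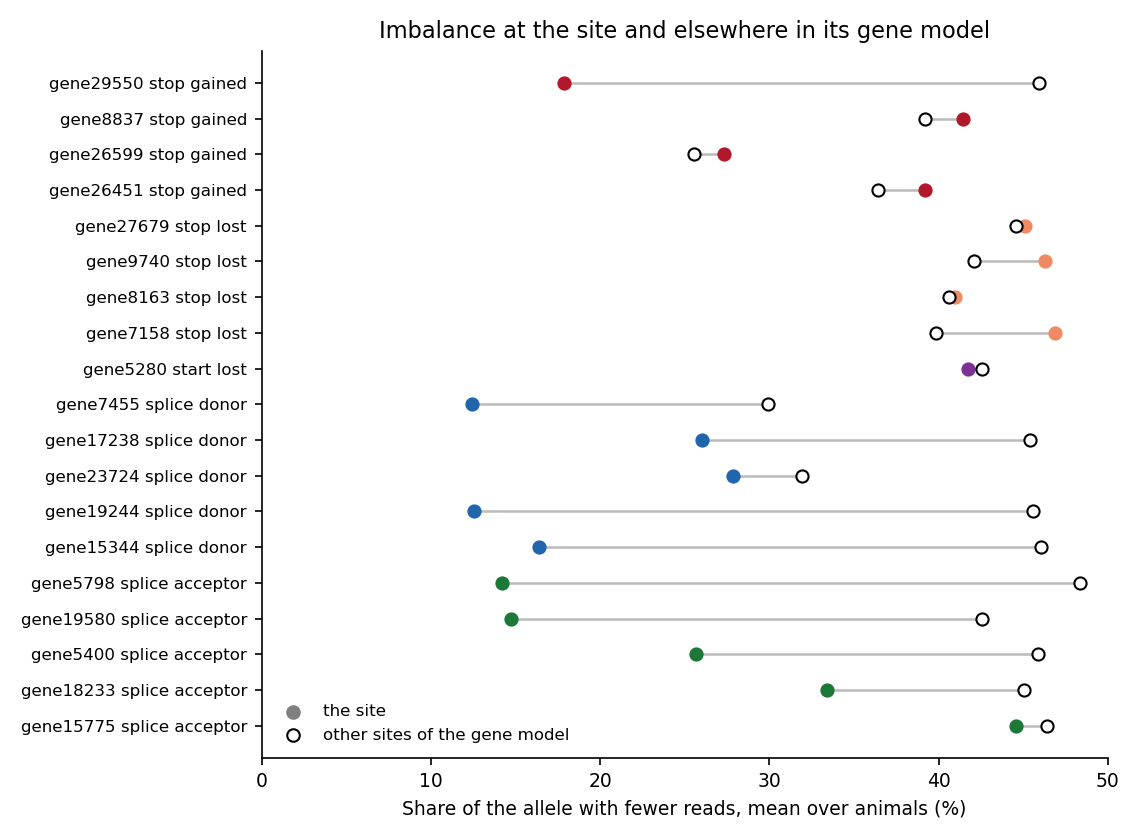
Filled points give the share of the allele with fewer reads (percent, horizontal axis, mean over heterozygous animals) at the named site. Open points give the median of the other heterozygous sites of its gene model, over those of these animals that had such sites. These were fewer animals in some rows, with 2 of 9 for gene5798 and 1 of 3 for gene15344 and gene9740. The points are far apart for gene29550 and most donor and acceptor rows, and within 2 percentage points for gene26599, gene27679 and gene8163.

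The direction of base change was uneven among low acceptor shares. Of the 6 acceptor sites under 30%, 5 were A-to-G or T-to-C in the table, against 2 of 12 with higher shares. For donor sites the counts were 2 of 6 and 7 of 16, and for splice region sites 38.3 and 33.9%. Over all SNP sites the share of such changes was 49.4% under 30% and 31.7% otherwise, and it was 72.1% (326 of 452) at sites heterozygous in all 9 animals against 33.2% elsewhere. Of the 3 acceptor sites heterozygous in all 9 animals, those of gene5798 and gene5400 were A-to-G on the strand of the gene and that of gene18233 was not. A change of A to G seen in every animal can be a DNA variant or an edit of RNA, and these cannot be told apart here.

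Where the strand was known, low donor shares came with both kinds of reference base. Of the 7 heterozygous donor sites at which only the alternative base was G or T, 3 were under 30% and 1 over 70%, with a median of 34.4%. Of the 10 at which only the reference base was, 1 was under 30% and 3 were over 70%, with a median of 60.9%. In these few sites, the median share of an alternative allele that replaced a G or T by another base was thus above 50%.

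Splice region sites stayed closest to the table as a whole. Among 188 tested sites, 19 were called (10.1%), 12 with a low share (median 19.2%, range 14.6 to 40.6%) and 7 with a high share (median 70.5%, range 65.5 to 86.9%). The highest was in gene29731 (chromosome 28, position 28688433), singled out after its value was seen, with 459 alternative of 528 reads in 9 heterozygous animals (log2 ratio 2.77 ± 0.15, SE, limma adjusted p = 3.98e-06). It was the 1 splice region site heterozygous at depth in every animal.

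The tissues were compared within animals. No site of the table was called by limma for a difference between pituitary and hypothalamus (0 of 43330, 0% called, at adjusted p under 0.05), and 2035 (4.7%) had an unadjusted p under 0.05. Among the 133 sites of interest tested, 0 were called and 8 had an unadjusted p under 0.05. These were 1 of 8 stop gained, 1 of 6 acceptor and 6 of 116 splice region sites. Only animals heterozygous at depth in both libraries entered the comparison. It therefore held 0 donor and 0 start lost sites, and the acceptor of gene5798 was left out. Sites whose libraries were mostly called differently, such as gene5798 and the donor of gene19244, could not be tested for a tissue difference. The 0 calls do not apply to them. In simulated data this test recovered 58 of 100 sites set to 15% in 1 tissue and 4 of 100 set to 30%. The stop gained site of gene26599 was at 72.4% in the pituitary and 72.7% in the hypothalamus, over 199 and 249 reads. At the acceptor of gene5400 the values were 25 and 26%, and at that of gene19580 15.8 and 14%. Among libraries called heterozygous, the high or low share of these sites was thus present in both tissues. Libraries of carriers called reference are left out of these values. There were 3 at gene19580, with 0 alternative of 57 reads, and 2 at gene5400, with 2 of 28.

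Differences among the ages could be tested by limma at 5664 sites, of which 3 (0.053%) were called. None of the 22 sites of interest was called, and 3 splice region sites had an unadjusted p under 0.05, against 4.5% of all sites. The 22 were 3 acceptor and 19 splice region sites, and no stop, start or donor site was heterozygous at depth 10 or more in 2 animals of each age. From the fitted ratios, the acceptor share of gene5400 was 20.8% at 6 months, 27.5% at 18 months and 29.8% at 30 months (limma adjusted p = 0.998), and that of gene5798 was 15.2, 12.2 and 15.9% (limma adjusted p = 0.998).

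Gene levels were compared between animals carrying the alternative allele and animals homozygous for the reference, by a two-sided exact permutation test of log2(CPM + 1) at all 102981 sites with at least 3 of each. None was called at adjusted p under 0.05 (0% called), and 6092 (5.92%) had an unadjusted p under 0.05. With 9 animals the smallest p was 0.00794, and the smallest adjusted p was 0.756, so this comparison could call no site. Among 346 sites of interest, 18 had an unadjusted p under 0.05 (5.20%), 1 of 17 stop gained, 17 of 299 splice region and 0 of the 30 others.

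The median difference over the 17 stop gained sites, carriers minus others, was 0.00 on the log2 scale, with 7 lower and 8 higher in carriers. The 2 remaining gene models, gene22986 and gene5460, were listed at 0 FPKM in the animals compared. The stop gained site with the smallest p, named after its value was seen, was in gene25377 (chromosome 22, position 16934031), at 47.3 ± 3.04 FPKM in 3 carriers and 41.8 ± 7.67 in 6 others (SD, exact permutation p = 0.0238, adjusted p = 0.756). Its level was higher in carriers, and its alternative share was 54.2% of 131 reads. Of 15 donor sites 6 were lower in carriers and 9 higher, and of 9 acceptor sites 5 were lower and 4 higher. In bulk tissue, fewer cells that express a gene and less RNA per cell cannot be told apart.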

How the data were processed

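Per the submitters' processing notes, the authors used HISAT2, StringTie, GATK and DESeq, and their roles, versions and genome build are not given in the sources used here. The deposited files hold read counts per gene model, FPKM values, and a SNP table with, per the file headers, genotype, depth as a read count, and reference and alternative read counts (genotype letters and allele pairs, neither a count nor a score by themselves) in each library. The 4310 of 7249571 calls whose allele counts do not sum to the depth were kept, and depth was taken as deposited. From these files, alternative shares used heterozygous calls of depth 10 or more, and CPM was computed from the deposited counts. Tests used limma 3.58.1 in R 4.3.3 with a pseudocount of 0.5, and exact permutation in Python 3.11.15, each tried on simulated data. The limma p-values set a mean over animals against their spread, moderated toward the spread over all tested sites. That spread includes the counting error of the reads. The permutation p-values come from reassigning the animals. Named sites were, per class, the 3 lowest and 2 highest pooled shares among sites heterozygous at depth in 3 animals, and the 2 deepest sites homozygous alternative in 9. Members, lists and tests were chosen with earlier results of these data known. Near-identical gene copies, exon positions and gene symbols were not analysed here.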

Additional observations from a re-analysis of the deposited data

Results flagged for a closer look

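Of 28 sets of values over animals (shares of named sites, class medians and shares of alternative alleles), 2 had 1 animal far from the others by Dixon's criterion, which chance meets in about 1 in 20 sets. At the stop gained site of gene15903, 18-month animal 2 had an alternative share of 26.8%, against 47.5 to 53.4% in the other 4 heterozygous animals. At the stop lost site of gene8163, 6-month animal 2 had 21.6%, against 51.2 to 56.2% in the other 4. No explanation was tested.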

How the results depend on the processing

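Keeping only sites called in all 9 animals left 55 stop gained, 16 start lost, 39 donor, 28 acceptor and 678 splice region sites, and moved the median allele frequency to 5.56% for stop gained, 11.1% for start lost and acceptor, 27.8% for donor and 22.2% for splice region sites. With calls of depth 10 or more it was 33.3% for stop gained, 100% for stop lost, 22.5% for start lost, 75% for donor, and 50% for acceptor and splice region sites. With only animals whose libraries were called alike it was 33.3% for stop gained, 100% for stop lost, 50% for donor and acceptor and 44.4% for splice region sites. The median alternative share moved by more than the spread between animals for donor sites heterozygous in at least 3 animals, at 34.5%. Leaving out 1 library gave medians of 47.3 to 51.1% for stop gained, 48.1 to 49.9% for stop lost, 46.7 to 50.4% for start lost, 48.2 to 56.8% for donor, 36.6 to 44% for acceptor and 48.3 to 49% for splice region sites. Calls of imbalance by limma among the sites of interest were 25 to 29 when a library was left out and 21 to 40 under the other settings, against 29. With weights by depth 25 of the 29 were among 40 calls, and against the median of all sites 25 remained. Tissue, age and carrier comparisons called 0 of the sites they could test under every setting. These settings included carriers by calls of depth 10 or more only, which was added after seeing the data. The log2 ratio changed sign, uncalled, for gene15775 at depth 20 (-0.025), and over the leave-one-out settings it ran from -0.025 to 0.32 for gene15775, from -0.55 to 0.051 for gene8837 (above 0 only without the hypothalamus of 6-month animal 2) and from -0.065 to 0.080 for gene7158 (below 0 only without that of 18-month animal 2). The cause of these changes was not tested. The tissue test took differences within animals paired by genotype, and the labels give no replicate numbers to use as a block in another test.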
